A study of Mus musculus with 6 samples.

Results

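The 10 genes described here, *Aldh2*, *Aldh1a7*, *Aldh1l1*, *Aldh1l2*, *Aldh3a2*, *Aldh3b1*, *Aldh4a1*, *Aldh7a1*, *Aldh9a1* and *Aldh18a1*, encode aldehyde dehydrogenases other than the 3 retinaldehyde dehydrogenases *Aldh1a1*, *Aldh1a2* and *Aldh1a3*. They were chosen by name and not by a measured value, but earlier results of these data were known when they were chosen. All 10 were found among the 23352 gene symbols of the series. Stromal cells of the omentum, the fat-associated apron of the peritoneal cavity, were sorted from wild-type C57BL/6 mice by the markers CD45, CD140a and CD105 and by aldehyde dehydrogenase (ALDH) activity, and RNA of each sorted population was sequenced. P1 was CD45-CD140a+CD105+ with high ALDH activity, and P2 and P3 carried the same surface markers with intermediate and low activity. CD45-CD140a+CD105- cells gave P4, of intermediate activity, and P5, of low activity, and P6 held CD45- cells with low CD140a and a positive ALDH signal. All 6 populations came from tissue of 1 genotype with no treatment named, and there was 1 library for each, so the differences below have no replicate check and no p-value was computed. The age and sex of the mice and the number pooled for a library are not given in the sources used here.

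Aldehyde dehydrogenases oxidize reactive aldehydes to carboxylic acids with NAD or NADP as the cofactor. Members of the family differ in their substrate and in the compartment they work in, from acetaldehyde in mitochondria and fatty aldehydes in membranes to intermediates of folate, proline, lysine and carnitine metabolism. The fluorescent assay used for sorting turns an aldehyde substrate into a charged acid that stays in the cell, and it reads the summed activity of the isozymes that accept the substrate rather than any 1 of them. In the omentum this activity is best known for the synthesis of retinoic acid from retinaldehyde, in which *Aldh1a2* takes part. The comparisons below ask how the transcripts of the family outside the retinaldehyde dehydrogenases stood in the gates that this activity defined. ALDH activity entered only as the class of each gate, because no activity value per library was used here.

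Levels are in FPKM (fragments per kilobase of exon and per unit of reads mapped), which is per transcript length, so levels of different genes can be set side by side. Depth, estimated from the steps between low FPKM values, ran from 53.4 to 61.8 M reads in P1 to P5 and was 37.0 M in P6, the shallowest library. Ratios of FPKM below carry a 95% interval based on the reads so estimated in each library, which covers counting error only. Transcripts of the sorting markers followed the gates, with *Eng* (CD105) at 42.6 to 52.4 FPKM in P1 to P3 and at most 0.728 elsewhere, *Pdgfra* (CD140a) at 5.36 in P6 and at least 117 elsewhere, and *Ptprc* (CD45) at most 0.755 in every library.

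Of the 10 genes, 9 reached 1 FPKM in at least 1 population and 8 reached it in all 6. *Aldh1l2* stayed below 1 FPKM in every library and *Aldh1a7* did so in P1 and P2. The ratio of the highest to the lowest population ran from 1.11 for *Aldh2* to 8.41 for *Aldh1a7*, and its median over the 9 expressed genes was 2.05, against 1.65 over the 12904 genes that reached 1 FPKM in any library. Each gene's levels give 5 steps between neighbours when the 6 populations are put in order, and 19 of the 50 steps of the 10 genes had an interval that included 1.

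**Figure D1:**
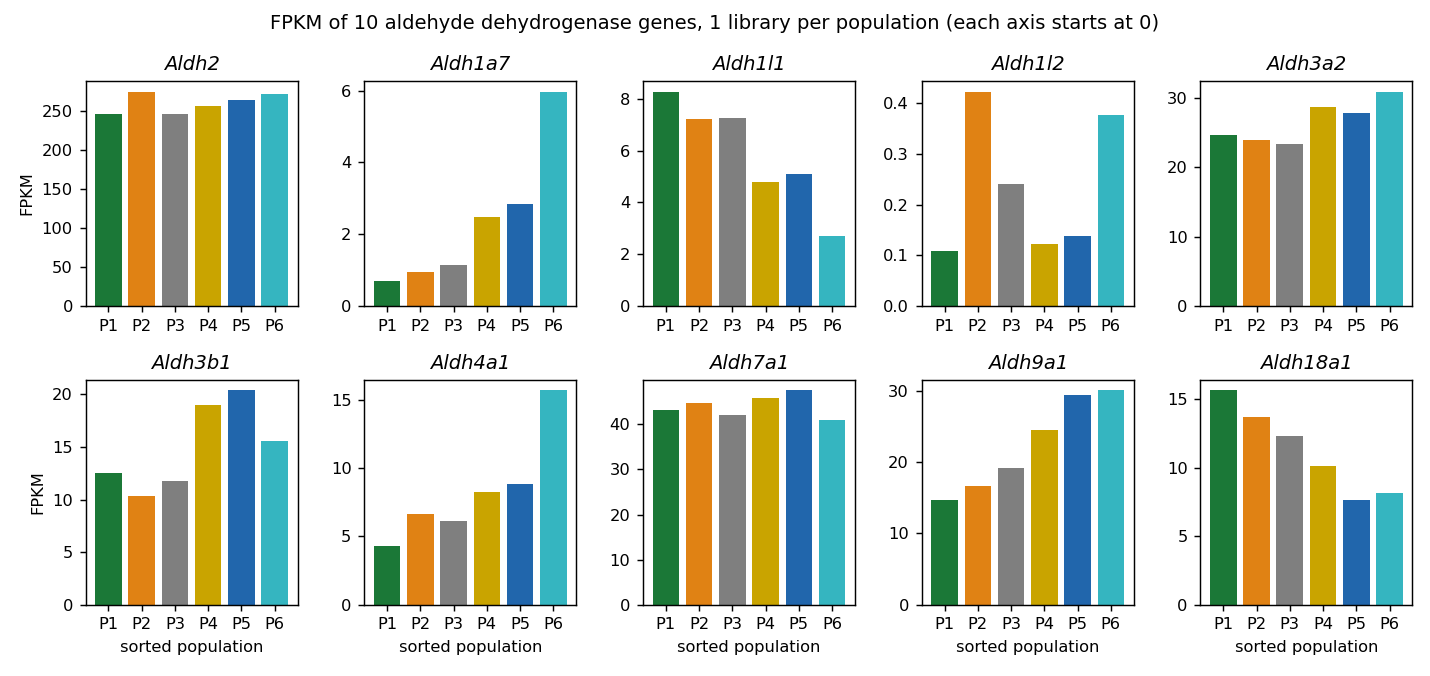
FPKM of each of the 10 aldehyde dehydrogenase genes (vertical axis, linear and starting at 0, its own scale for each gene) in the 6 sorted populations (horizontal axis), 1 bar for 1 library, with no error bars because there were no replicates. In the deposited values, *Aldh2* and *Aldh7a1* were nearly level, *Aldh1a7*, *Aldh4a1* and *Aldh9a1* stood highest in P6, and *Aldh1l1* and *Aldh18a1* stood highest in P1.

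Within the CD105+ cells, none of the 10 transcripts differed by 2-fold or more between the 3 classes of ALDH activity at 1 FPKM or above. A gene was counted in a comparison when it had at least 1 FPKM in either population, and called when FPKM + 0.1 differed by at least 2-fold. Between P1 and P2, 0 of 8 genes were called, where 5.19% of all 11803 genes were. Their fold changes of P1 over P2 ran from 0.654 for *Aldh4a1* to 1.21 for *Aldh3b1*, with 4 genes higher and 4 lower in P1, where 39.8% of all genes were higher. The counting interval excluded 1 for 7 of these 8 genes, and the median size of the log2 difference was 0.19 for them and 0.15 for all genes. Between P2 and P3, 0 of 9 genes were called, against 3.66% of 11980 genes, and the folds of P2 over P3 lay between 0.849 and 1.11, with a median size of the log2 difference of 0.15 for the 9 genes and 0.13 for all. Between P1 and P3, 0 of 9 were called, against 9.24% of 11960 genes. With so few genes, counts of 0 lie near these shares. *Aldh1a2* had 469 FPKM in P1, which was 5.96 times (5.83 to 6.09) the 78.8 FPKM of P2, but it was not called between P2 and P3, where P2 stood at 0.589 times P3 (0.575 to 0.604), against the order of the activity. These 3 comparisons share libraries and are not independent of each other.

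Within the CD105- cells, 0 of 9 genes were called between P4 and P5, a count near the share of 5.37% over 12022 genes. The folds of P4 over P5 lay between 0.831 for *Aldh9a1* and 1.32 for *Aldh18a1*. Of the 9 genes, 7 were lower and 2 higher in P4, the gate with the higher activity, and 43.0% of all genes were higher in P4. Of the 7 lower genes, 5 turned when libraries were divided by *Gapdh* (*Aldh2*, *Aldh1l1*, *Aldh3b1*, *Aldh4a1* and *Aldh7a1*). The median log2 difference was -0.09 for the 9 genes and -0.04 for all genes.

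The order of the gates, with P1 above P2, P2 above P3 and P4 above P5, was met by 2 of the 10 genes, *Aldh18a1* and *Aldh3a2*, and 16.6% of 12461 genes had that order. The reverse order was found for *Aldh1a7* and *Aldh9a1*, against 31.1% of genes. P1 was the highest of the 6 populations for *Aldh1l1* and *Aldh18a1*, where it was so for 14.2% of 12904 genes, and the lowest for 4 of the 10 genes, against 36.3%. P6 was the highest for 4 of the 10, against 37.7% of genes. In 4 genes, *Aldh2*, *Aldh1l2*, *Aldh4a1* and *Aldh7a1*, P2 lay above P3 while P4 lay below P5, and 27.2% of 12461 genes had opposite directions in these 2 steps. With 10 genes, these counts lie near the shares over all genes.

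CD105+ and CD105- cells of the same ALDH class differed by more, both in the counted genes and over all genes. The median size of the log2 difference between P2 and P4 was 0.44 for the 9 counted genes and 0.23 for all genes. Between P3 and P5 it was 0.52 and 0.24. At intermediate activity, 1 of 9 genes was called between P2 and P4, *Aldh1a7*, which was lower in P2, where 12.5% of 12181 genes were called in either direction and 7.63% were higher in P4. At low activity, *Aldh1a7* was again the 1 gene of 9 called, lower in P3 than in P5, against 13.6% of 12152 genes in either direction and 6.29% higher in P5. With 9 genes, both counts of calls lie near the shares over all genes. Both calls of *Aldh1a7* were lost with a pseudocount of 1 FPKM, and both were lost after division by *Gapdh*, which left folds of 0.559 for P2 over P4 and 0.607 for P3 over P5. In 6 of the 10 genes, all 3 CD105+ populations lay below both CD105- populations, which held for 37.9% of all genes, and in 2 genes, *Aldh1l1* and *Aldh18a1*, they lay above both, against 18% of genes. These counts depended on the scaling, with 4 genes below and 2 above by the median of ratios, and 2 below (*Aldh1a7* and *Aldh3b1*) and 6 above after division by *Gapdh*, whose level was 214 to 224 FPKM in P1 to P3 and 302 to 326 in P4 and P5. Between P6 and P4, *Aldh1a7* was called once more, higher in P6, where 16.3% of 12467 genes were called in either direction and 9.13% were higher in P6. The folds of P6 over P4 ran from 0.573 for *Aldh1l1* to 2.35 for *Aldh1a7*.

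**Figure D2:**
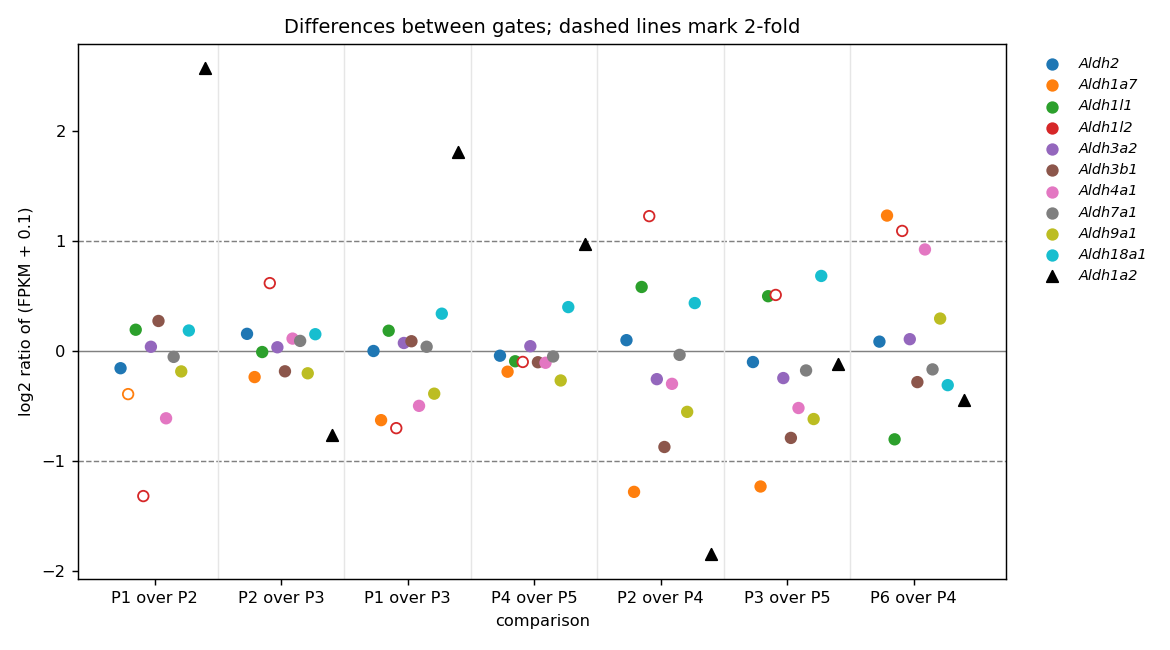
log2 ratio of (FPKM + 0.1) (vertical axis) for each of 7 comparisons between gates (horizontal axis), with 1 circle for each of the 10 genes and a black triangle for *Aldh1a2*. Open circles mark genes below 1 FPKM in both populations, dashed lines mark 2-fold, and among filled circles only *Aldh1a7* lies past them, in P2 over P4, P3 over P5 and P6 over P4, whereas *Aldh1a2* lies past them in P1 over P2, P1 over P3 and P2 over P4.

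*Aldh2* (chr5:121566027-121593824, minus strand) encodes the mitochondrial enzyme that clears acetaldehyde formed from ethanol and aldehydes formed by lipid peroxidation. Coordinates here are those of the gene in GRCm38 (GENCODE M21). *Aldh2* was the most abundant of the 10 transcripts in every library, with 246, 274 and 246 FPKM from P1 to P3, 256 and 263 in P4 and P5, and 271 in P6. All 6 deposited values lay close together, with a highest over lowest of 1.11. That ratio was 1.29 with quantile normalization and 1.56 after division by *Gapdh*. As deposited, P1 and P3, the ends of the activity range within CD105+ cells, did not differ beyond counting error, with a ratio of 1.00028 (0.986 to 1.015). Across the other scalings and pseudocounts, the fold of P1 over P3 ran from 0.877 to 1.09. P2 lay 1.11 times above P3 (1.10 to 1.13), and P4 lay slightly below P5, with a ratio of 0.971 (0.958 to 0.984). *Aldh2* held between rank 207 in P6 and rank 261 in P1 among all genes by FPKM. It made up 63.8% (P5) to 68.7% (P2) of the summed FPKM of the 10 genes. *Aldh1a2* stood at 1.91, 0.2875 and 0.544 times the level of *Aldh2* from P1 to P3, 1.11 and 0.551 times in P4 and P5, and 0.769 times in P6. In P2, P3, P5 and P6, therefore, *Aldh2* had the higher level per transcript length.

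Other enzymes that handle aldehydes included genes within 2-fold across all gates and genes that differed by more. Of the 14 genes on a list of alcohol dehydrogenases, aldo-keto reductases and related enzymes, 12 were counted, and 1 was called between P1 and P2, 0 between P2 and P3 and 1 between P4 and P5, against 5.19%, 3.66% and 5.37% of all genes. *Akr1a1*, an aldehyde reductase and the most abundant gene of the list, had 193 to 251 FPKM, *Esd* had 38.6 to 49.0 FPKM and *Glo1*, which clears methylglyoxal, had 28.5 to 38.7 FPKM. *Adh1*, an alcohol dehydrogenase whose substrates include ethanol and retinol, had 169, 138 and 104 FPKM from P1 to P3, 65.0 and 25.9 in P4 and P5, and 1.67 in P6. *Adh1* met the order of the gates within both CD105 classes and was lowest in P6. *Akr1b3*, the aldose reductase gene, had 18.6, 4.28 and 4.16 FPKM from P1 to P3, 7.69 and 10.46 in P4 and P5, and 6.19 in P6, and was past 2-fold in P1 against P2 and P3. *Gsta4*, whose product conjugates the lipid aldehyde hydroxynonenal to glutathione, had 2.35, 4.04 and 5.79 FPKM from P1 to P3, 17.4 and 13.6 in P4 and P5, and 67.1 in P6. *Gsta4* ran against the order of the gates within CD105+ cells but met it between P4 and P5. On a list of 11 target genes of NRF2, a factor that responds to reactive electrophiles, 0 genes were called in either direction between P1 and P2, P2 and P3, P1 and P3, P4 and P5 or P3 and P5. The shares over all genes there were 5.19%, 3.66%, 9.24%, 5.37% and 13.6%. Of the 11 genes, 1 was lower in P2 than in P4 and 2 were lower in P6 than in P4, where 12.5% and 16.3% of all genes were called in either direction. With 11 genes, these counts lie near the shares.

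*Aldh1a7* (chr19:20692953-20727562, minus strand) lies next to *Aldh1a1* and encodes a rodent enzyme close to it in sequence. It had 0.709, 0.962 and 1.15 FPKM from P1 to P3, 2.48 and 2.84 in P4 and P5, and 5.97 in P6. The CD105+ populations did not overlap the CD105- populations, and P6 lay above both. The ratio of P4 to P2 was 2.58 (2.06 to 3.24), that of P6 to P4 was 2.40 (2.06 to 2.82), and that of P6 to P1, 8.41 (6.50 to 10.9), was the largest span among the 10 genes. Within the CD105 classes, P2 and P1, P3 and P2, and P5 and P4 were neighbours in this order whose intervals included 1. These values rested on 70.7 estimated reads in P1 and 412 in P6, the lowest and highest of the 6 libraries. *Aldh1a1* had 41.4, 63.4 and 64.7 FPKM from P1 to P3, 78.3 and 90.7 in P4 and P5, and 129 in P6, the same order of populations. *Aldh1a7* stood at 1.71%, 1.52% and 1.78% of the *Aldh1a1* level from P1 to P3, 3.17% and 3.13% in P4 and P5, and 4.63% in P6. By the root mean square difference of centred log2(FPKM + 0.1) over the 6 populations, the genes most like *Aldh1a7* among 8694 with a mean of at least 5 FPKM were *Lrrc42* (0.0832), *Map4k2* (0.0895) and *Atg3* (0.133).

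Because the level of *Aldh1a7* was a few percent of that of its paralogue, the similarity of both sequences bears on what the value can hold. In the GRCm38 annotation (GENCODE M21), the coding sequences of both genes span 1503 bases and differ at 126 of them, an identity of 91.6%. Of the 1991 stretches of 76 bases in the *Aldh1a7* transcript, 76 being the read length, 47 (2.36%) are also found without a mismatch in an *Aldh1a1* transcript and 328 (16.5%) are found with at most 2 mismatches. The longest identical coding run is 100 bases. How reads that match both genes were assigned is not given in the sources used here, and the part of *Aldh1a1* reads in the *Aldh1a7* values was not tested. The 60-base coding stretch that holds the most differences, coding bases 317 to 376 counted from the start codon, shows where reads can tell the genes apart. The capitals mark the 16 bases that differ.
Aldh1a7, chr19:20719252-20719311, minus strand: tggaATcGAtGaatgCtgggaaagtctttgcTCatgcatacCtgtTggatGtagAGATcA
Aldh1a1, chr19:20619973-20620032, plus strand: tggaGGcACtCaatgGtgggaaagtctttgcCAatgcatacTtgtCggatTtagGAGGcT

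**Figure D3:**
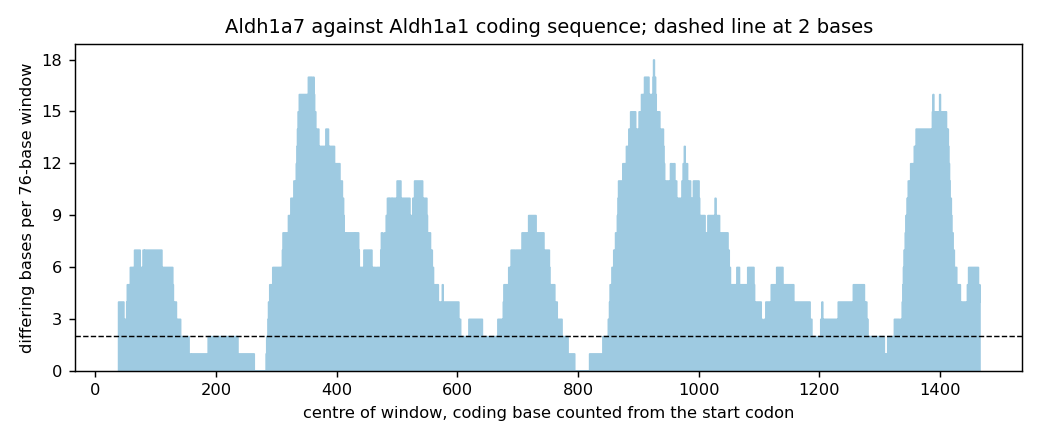
Number of bases that differ between *Aldh1a7* and *Aldh1a1* in each 76-base window of the coding sequence (vertical axis), by the coding position of the window's centre counted from the start codon (horizontal axis). Of 1428 windows, 47 hold no difference and 326 lie at or below the dashed line at 2 bases, in several separate stretches, and the highest peak reaches 18 bases.

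The fatty aldehyde dehydrogenases were represented by *Aldh3a2* and *Aldh3b1*. *Aldh3a2* (chr11:61223417-61267464, minus strand) encodes the enzyme of the endoplasmic reticulum that oxidizes long-chain fatty aldehydes from sphingolipid and phytol breakdown and is lost in Sjögren-Larsson syndrome. It had 24.6, 23.9 and 23.4 FPKM from P1 to P3, 28.6 and 27.7 in P4 and P5, and 30.8 in P6. Its values met the order of the gates, but no step within a CD105 class was larger than counting error, with a ratio of 1.03 (0.983 to 1.07) for P1 over P2, 1.024 (0.981 to 1.07) for P2 over P3 and 1.03 (0.991 to 1.07) for P4 over P5. The CD105+ values lay below the CD105- values, with a ratio of P2 to P4 of 0.837 (0.803 to 0.872), but above them after division by *Gapdh*.

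*Aldh3b1* (chr19:3913491-3929808, minus strand) encodes a membrane-bound enzyme for medium and long-chain aldehydes formed in lipid peroxidation. It had 12.5, 10.3 and 11.7 FPKM from P1 to P3, 18.99 and 20.4 in P4 and P5, and 15.6 in P6. All 3 CD105+ populations lay below P6, and P6 lay below P4 and P5. The ratio was 0.544 (0.504 to 0.586) for P2 over P4 and 0.576 (0.537 to 0.618) for P3 over P5, and neither reached 2-fold. P1 lay 1.21 times above P2 (1.11 to 1.32) but did not differ from P3 beyond counting error, with a ratio of 1.06. Of the 1849 stretches of 76 bases in the *Aldh3b1* transcript, 20 (1.08%) are shared without a mismatch with *Aldh3b2* and 51 (2.76%) with *Aldh3b3*.

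On a list of 9 genes of sphingolipid, phytol and ether-lipid metabolism, all 9 were counted. Between P1 and P2 and between P2 and P3, 0 were called, and between P4 and P5 the 1 called gene was *Agmo*, which encodes the monooxygenase that splits ether lipids into a fatty aldehyde and glycerol. The shares over all genes in these comparisons were 5.19%, 3.66% and 5.37%. *Agmo* had 7.63, 5.45 and 4.73 FPKM from P1 to P3, 2.65 and 1.17 in P4 and P5, and 0.429 in P6, in the order of the gates and opposite to *Aldh3b1* across CD105. *Sgpl1*, the lyase that releases a fatty aldehyde from sphingosine phosphate, lay between 13.0 and 17.1 FPKM in all 6 populations. *Sphk1*, the kinase that forms this phosphate, was past 2-fold higher in P2 than in P4 and in P3 than in P5, with 18.8, 37.6 and 43.3 FPKM from P1 to P3, 11.9 and 12.9 in P4 and P5, and 1.57 in P6.

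*Aldh1l1* and *Aldh1l2* encode the cytosolic and mitochondrial enzymes that oxidize formyltetrahydrofolate to carbon dioxide and tetrahydrofolate, which removes one-carbon units from the folate pool. *Aldh1l1* (chr6:90486427-90600203, plus strand) had 8.27, 7.22 and 7.26 FPKM from P1 to P3, 4.785 and 5.11 in P4 and P5, and 2.70 in P6. The CD105+ populations lay above the CD105- populations and P6 was lowest. P1 exceeded P3, the next in order, with a ratio of 1.14 (1.05 to 1.23), whereas P2 and P3 had a ratio of 0.994 (0.919 to 1.08). The ratio was 1.51 (1.38 to 1.65) for P2 over P4, 1.42 (1.30 to 1.55) for P3 over P5 and 0.564 (0.492 to 0.648) for P6 over P4. P1 stood 3.06 times above P6 (2.69 to 3.49). By the same measure, among 8693 genes, those most like *Aldh1l1* were *Lgalsl* (0.103), *Smad7* (0.108) and *Dtwd1* (0.114).

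*Aldh1l2* (chr10:83487450-83534140, minus strand) had the lowest level of the 10 genes in every library, with 0.109, 0.422 and 0.240 FPKM from P1 to P3, 0.123 and 0.139 in P4 and P5, and 0.375 in P6. It rested on 33.9 estimated reads in P1 and 152 in P2. P2 and P6 were highest and did not differ beyond counting error, and the same held among P5, P4 and P1, the lowest. The ratio was 0.259 (0.173 to 0.377) for P1 over P2. Of its 6027 annotated exon bases, 1056 (17.5%) overlap *D10Wsu102e* on the other strand, which had 5.64 to 8.07 FPKM. Whether counting used the strand is not stated, so reads of both genes cannot be told apart there. *Nbl1* (0.182), *Pdgfa* (0.186) and *Scarf2* (0.211) came closest to the pattern of *Aldh1l2*.

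On a list of 15 folate one-carbon genes, 0 of 11 counted genes were called between P1 and P2, between P2 and P3 and between P1 and P3, and 0 of 10 between P4 and P5. These counts lie near the shares over all genes of 5.19%, 3.66%, 9.24% and 5.37%. *Mthfd2*, which encodes a mitochondrial enzyme that feeds formyltetrahydrofolate synthesis, was the 1 gene called between P2 and P4, P3 and P5 and P6 and P4, against 12.5%, 13.6% and 16.3% of all genes. It had 1.23, 1.92 and 1.02 FPKM from P1 to P3, 0.776 and 0.450 in P4 and P5, and 2.11 in P6, so each of these calls lay near the minimum of 1 FPKM. *Shmt2*, the mitochondrial serine hydroxymethyltransferase, had 7.53 to 10.3 FPKM.

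*Aldh18a1* and *Aldh4a1* work at opposite ends of proline metabolism through the same intermediate, pyrroline carboxylate. *Aldh18a1* (chr19:40550257-40588463, minus strand) encodes the synthase that makes this intermediate from glutamate, a reduction rather than an aldehyde oxidation. It had 15.6, 13.7 and 12.3 FPKM from P1 to P3, 10.1 and 7.63 in P4 and P5, and 8.13 in P6. It was highest in P1 and was the 1 gene of the 10 whose steps in the order of the gates all exceeded counting error. The ratio was 1.14 (1.08 to 1.202) for P1 over P2, 1.11 (1.05 to 1.18) for P2 over P3 and 1.32 (1.24 to 1.42) for P4 over P5. None of these steps reached 1.5-fold. Across CD105 the ratio was 1.36 (1.28 to 1.44) for P2 over P4 and 1.61 (1.51 to 1.72) for P3 over P5. *Ick* (0.0312), *Slc39a14* (0.0445) and *Rps12* (0.0544) had the patterns most like that of *Aldh18a1*.

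*Aldh4a1* (chr4:139622866-139649690, plus strand) encodes the mitochondrial dehydrogenase that turns pyrroline carboxylate from proline breakdown into glutamate. It had 4.32, 6.66 and 6.15 FPKM from P1 to P3, 8.21 and 8.85 in P4 and P5, and 15.7 in P6. P1 was the lowest and P6 the highest, and each of the 5 steps between neighbours in the order of the levels exceeded counting error, although the order among P2 to P5 changed after division by *Gapdh*. P1 stood at 0.649 times P2 (0.592 to 0.711), the lowest ratio of the counted genes in that comparison. P6 stood at 1.91 times P4 (1.78 to 2.04) and 3.63 times P1 (3.33 to 3.96). The annotated exons of *Aldh4a1* share 1595 of 3382 bases (47.2%) with *Gm21969* on the same strand. *Gm21969* is not among the gene symbols of the series, and how reads in these exons were assigned is not given in the sources used here. *Phka2* (0.0580), *Dock9* (0.0946) and *Klf11* (0.0958) were nearest in pattern to *Aldh4a1*. *Aldh18a1* and *Aldh4a1* thus had opposite orders between P1 and P6, at 15.6 against 4.32 FPKM in P1 and 8.13 against 15.7 in P6.

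Other genes of proline, ornithine and glutamate metabolism, 13 on the list, were mostly level. *Prodh*, the proline dehydrogenase that precedes *Aldh4a1* in proline breakdown, was the 1 gene of 10 called between P1 and P2, lower in P1, where 5.19% of all genes were called in either direction. *Prodh* was also called lower in P1 than in P3, higher in P6 than in P4 and higher in P2 than in P4. The shares of all genes called in either direction there were 9.24%, 16.3% and 12.5%. It had 0.350, 1.32 and 1.46 FPKM from P1 to P3, 0.4997 and 0.824 in P4 and P5, and 3.67 in P6, so that P1 was lowest and P6 highest, as for *Aldh4a1*. Across CD105, however, the deposited values of both genes went opposite ways. The folds of P2 over P4 and of P3 over P5 were 2.37 and 1.69 for *Prodh*, against 0.813 and 0.698 for *Aldh4a1*. *Oat*, the ornithine aminotransferase, had 157 to 183 FPKM and *Glud1*, the glutamate dehydrogenase, 63.0 to 98.8 FPKM. *Pycr1*, which encodes a reductase that completes proline synthesis, had 1.37, 2.09 and 1.24 FPKM from P1 to P3, 0.830 and 0.727 in P4 and P5, and 0.840 in P6 and was called between P2 and P4.

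*Aldh18a1* and *Aldh1l2* are known targets of ATF4, the transcription factor of the amino acid response. Of 14 ATF4 genes on the list, 0 of 13 were past 2-fold higher in P1 than in P2 and 1 was lower, the amino acid transporter gene *Slc7a5*, with 1.10 FPKM in P1 and 5.46 in P2. In that comparison 5.19% of all genes were called in either direction. *Asns*, the asparagine synthetase gene, had 14.1, 9.94 and 9.88 FPKM from P1 to P3, 6.56 and 3.24 in P4 and P5, and 12.8 in P6. It met the order of the gates as *Aldh18a1* did, but unlike *Aldh18a1* it was high in P6. Other genes of the list went both ways, with *Trib3* in the order of the gates and *Ddit3* in the reverse order. Between P6 and P4, 3 of 14 genes were called higher in P6 (*Phgdh*, *Chac1* and *Ddit3*) and 1 lower (*Vldlr*), against 16.3% of all genes in either direction and 9.13% higher in P6. The median log2 difference there was 0.67 for the list and 0.05 for all genes. *Atf4* itself lay between 98.1 and 140 FPKM.

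*Aldh7a1* (chr18:56509687-56572951, minus strand) encodes antiquitin, which oxidizes the semialdehyde of aminoadipate in lysine breakdown and also betaine aldehyde. It had 43.2, 44.8 and 42.0 FPKM from P1 to P3, 45.9 and 47.5 in P4 and P5, and 40.9 in P6. The 6 deposited values were nearly level, with a ratio of highest to lowest of 1.16, and 3 of the 5 steps in their order did not exceed counting error. After division by *Gapdh* that ratio was 1.41, and the CD105+ populations moved from below to above P4 and P5. Its exons share 300 annotated bases (7.08%) with *Phax* on the other strand. *Aldh7a1* was second to *Aldh2* among the 10 genes in each population.

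*Aldh9a1* (chr1:167349991-167368532, plus strand) encodes the enzyme for trimethylaminobutyraldehyde in carnitine synthesis. It had 14.6, 16.6 and 19.2 FPKM from P1 to P3, 24.5 and 29.5 in P4 and P5, and 30.1 in P6. It ran against the order of the gates in both CD105 classes, and each of these steps exceeded counting error. The ratio was 0.879 (0.829 to 0.931) for P1 over P2, 0.868 (0.824 to 0.915) for P2 over P3 and 0.830 (0.795 to 0.866) for P4 over P5. The same gene was lower in CD105+ than in CD105- cells, with a ratio of 0.680 (0.647 to 0.715) for P2 over P4 and 0.650 (0.621 to 0.680) for P3 over P5, and P6 and P5 did not differ beyond counting error. It was lowest in P1 and ran against the gates under all 5 scalings, but after division by *Gapdh* the CD105 classes overlapped. *Esyt2* (0.0295), *Tiparp* (0.0331) and *Mink1* (0.0347) had the most similar patterns to *Aldh9a1*.

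On a list of 10 further genes of lysine, choline and carnitine metabolism, 5 were counted in P1 against P2, P2 against P3 and P1 against P3 and 4 in P4 against P5, and 0 were called in these comparisons. With so few genes, these counts lie near the shares over all genes of 5.19%, 3.66%, 9.24% and 5.37%. In P6 against P4, 3 of 6 counted genes were called higher in P6, where 9.13% of 12467 genes were. *Dhtkd1*, at 1.31 FPKM in P6, and *Bhmt*, at 1.08, lay near the minimum of 1 FPKM. The other called gene, *Aass*, which opens lysine breakdown ahead of *Aldh7a1*, had 1.14, 1.73 and 1.95 FPKM from P1 to P3, 1.997 and 1.63 in P4 and P5, and 4.21 in P6.

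Added together, the 10 transcripts were not highest in the gate of highest activity. Their summed FPKM was 369.8, 399 and 369 from P1 to P3, 399.5 and 413 in P4 and P5, and 422 in P6, so that P1 and P3 had the lowest sums. The highest sum was in P6 as deposited, with a common FPKM sum and with quantile normalization, and in P2 with the median of ratios and after division by *Gapdh*, where highest over lowest was 1.114 and 1.443. P1 had the highest sum under none of these 5 scalings, but it moved to second highest with the median of ratios and after division by *Gapdh*. Without *Aldh2* the sum was 124, 125 and 123 from P1 to P3, 144 and 149.7 in P4 and P5, and 150.2 in P6, an order that turned after division by *Gapdh*, where P1 was highest at 150.1 and P5 lowest at 119.0. The sum of *Aldh1a1*, *Aldh1a2* and *Aldh1a3* varied more and was highest in P1 under all 5, at 530.2, 180.4 and 222 FPKM from P1 to P3, 372 and 243 in P4 and P5, and 338 in P6. Over all 20 *Aldh* genes of the series, the 10 genes made up 39.8%, 64.7% and 58.5% of the FPKM from P1 to P3, 47.8% and 57.0% in P4 and P5, and 50.6% in P6. The share in P1 was the lowest, and the 3 retinaldehyde dehydrogenases took 57.0% there, against 29.3% in P2. The 20-gene sum met the order of the gates between P4, at 836 FPKM, and P5, at 725, and between P1, at 929.99, and the others, but not between P2, at 616, and P3, at 631, a pair whose order turned with the median of ratios and after division by *Gapdh*.

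**Figure D4:**
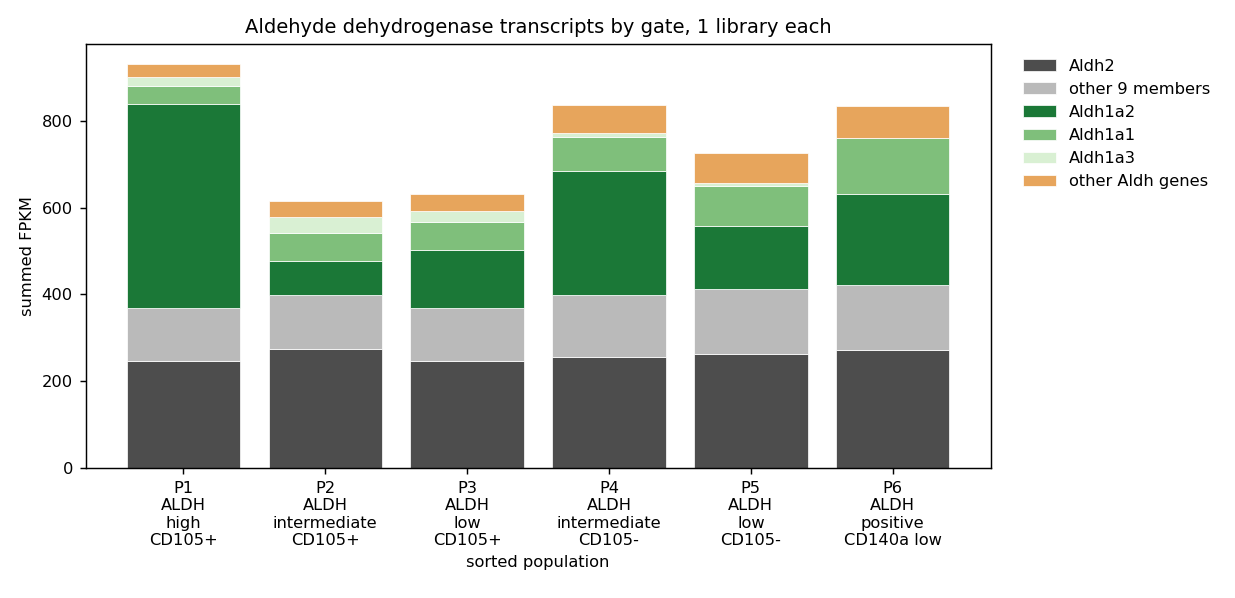
Summed FPKM of 20 *Aldh* genes (vertical axis, starting at 0) in each sorted population (horizontal axis, with the gate), 1 library each, stacked as *Aldh2*, the other 9 of the 10 genes, the 3 retinaldehyde dehydrogenases and the remaining *Aldh* genes. The grey segments of the 10 genes end between 369 and 422 FPKM in all 6 populations, whereas the *Aldh1a2* segment spans 78.8 FPKM in P2 to 469 in P1.

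Of the *Aldh* genes outside both groups, 7 were found and 4 were counted between neighbouring gates. *Aldh6a1*, for a mitochondrial enzyme of valine and pyrimidine breakdown, had 20.4, 25.1 and 26.7 FPKM from P1 to P3, 50.0 and 53.8 in P4 and P5, and 57.1 in P6, and *Aldh1b1*, a mitochondrial relative of *Aldh2*, had 0.855, 1.11 and 2.54 FPKM from P1 to P3, 5.28 and 7.01 in P4 and P5, and 5.003 in P6. Both were lower in CD105+ than in CD105- cells. *Aldh1b1* was called between P2 and P3, P1 and P3, P2 and P4, and P3 and P5, against 3.66%, 9.24%, 12.5% and 13.6% of all genes. *Aldh6a1* was called between P3 and P5 only. The other counted genes, *Aldh5a1* and *Aldh16a1*, went the other way at the same ALDH class and were not called. Their folds were 1.14 and 1.09 for P2 over P4 and 1.21 and 1.23 for P3 over P5.

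Markers of other cell types also moved between the gates. The 10 mesothelial markers summed to 82.7, 106 and 171 FPKM from P1 to P3, 1084 and 912 in P4 and P5, and 3066 in P6, with 6, 5, 6, 9, 8 and 9 of them at 1 FPKM or more. *Aldh1a7*, *Aldh4a1* and *Aldh9a1* were likewise lowest in P1 and highest in P6, except that *Aldh9a1* was highest in P5 with the median of ratios. The 20 pancreatic acinar markers summed to 5.41, 287 and 30.4 FPKM from P1 to P3, 1558 and 181 in P4 and P5, and 2253 in P6. Endothelial markers summed to 5.58 FPKM in P1 and 118 in P6, the extremes of the 6 libraries, with 1 and 4 of 10 at 1 FPKM or more. In P6, *Esam* at 62.0 and *Kdr* at 46.9 FPKM made up most of that sum, and *Pecam1* at 0.992 and *Cdh5* at 0.343 stayed below 1 FPKM. The part of mesothelial, acinar or endothelial RNA in the values of the 10 genes was not tested, and in these bulk samples fewer cells of a type and less RNA per cell cannot be told apart. Adipocyte markers summed to 643 FPKM in P1 and 577 in P6, with 4 and 9 of 10 at 1 FPKM or more, and mural markers to 111 FPKM in P1 and 325 in P3. *Lpl* at 412 and *Fabp4* at 172 FPKM made up most of the adipocyte sum in P1, where *Adipoq* at 0.508 and *Cfd* at 0.337 stayed below 1 FPKM. *Des* at 198, *Pdgfrb* at 70.0 and *Myh11* at 35.1 FPKM made up most of the mural sum in P3, where *Rgs5* at 0.553 and *Cspg4* at 0.147 stayed below 1 FPKM. Myeloid markers summed to 26.3 FPKM in P1 and 72.7 in P6, and lymphoid markers to at most 8.94 FPKM, in P2.

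Promoter sequence is shown for the 2 genes highest in P1, *Aldh18a1* and *Aldh1l1*, and for the 2 genes in the reverse order of the gates, *Aldh9a1* and *Aldh1a7*. Each is the 250 bases upstream of the RefSeq gene start in GRCm38, with capitals for motif matches, and that of *Aldh1l1* lies inside the longer gene span of GENCODE M21. RefSeq windows were matched for 7 of the 10 genes. Searched on both strands were TGACNNNGC (the antioxidant response element bound by NRF2), TGATGNAA (an ATF4 element), AGGTCA (a nuclear receptor half-site), CACGTG (the E-box), CCAAT (the CCAAT box) and GGGCGG (the GC box of SP1), none of which contains another, although the antioxidant response element and the half-site can share letters.
Aldh18a1, chr19:40588464-40588713, minus strand: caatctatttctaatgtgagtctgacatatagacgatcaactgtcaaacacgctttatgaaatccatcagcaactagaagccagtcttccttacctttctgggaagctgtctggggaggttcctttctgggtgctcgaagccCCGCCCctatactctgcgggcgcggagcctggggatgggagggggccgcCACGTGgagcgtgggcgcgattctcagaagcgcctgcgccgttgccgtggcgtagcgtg
Aldh1l1, chr6:90550543-90550792, plus strand: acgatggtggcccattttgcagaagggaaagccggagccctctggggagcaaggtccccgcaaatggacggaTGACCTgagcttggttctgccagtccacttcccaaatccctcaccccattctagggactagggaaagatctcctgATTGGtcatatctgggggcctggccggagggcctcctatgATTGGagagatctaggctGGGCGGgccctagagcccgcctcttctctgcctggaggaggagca
Aldh9a1, chr1:167349741-167349990, plus strand: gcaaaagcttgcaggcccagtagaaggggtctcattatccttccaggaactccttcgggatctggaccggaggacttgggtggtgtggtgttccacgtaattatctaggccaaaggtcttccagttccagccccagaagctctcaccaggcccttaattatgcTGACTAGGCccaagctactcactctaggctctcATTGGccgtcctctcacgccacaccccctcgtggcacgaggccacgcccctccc
Aldh1a7, chr19:20727557-20727806, minus strand: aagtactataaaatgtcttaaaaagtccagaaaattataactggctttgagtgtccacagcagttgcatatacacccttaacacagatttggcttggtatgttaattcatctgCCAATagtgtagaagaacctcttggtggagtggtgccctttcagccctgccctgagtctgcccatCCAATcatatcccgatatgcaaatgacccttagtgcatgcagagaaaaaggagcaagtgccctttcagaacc

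In the *Aldh18a1* window, 1 E-box and 1 GC box matched. The *Aldh1l1* window held 1 nuclear receptor half-site, 2 CCAAT boxes and 1 GC box. The *Aldh9a1* window held 1 antioxidant response element and 1 CCAAT box, and the *Aldh1a7* window held 2 CCAAT boxes and no other searched motif. Among 32851 windows of the same length, the E-box was found in 6.02%, the antioxidant response element in 10.2%, the half-site in 14.0%, the GC box in 32.7%, the CCAAT box in 33.8% and the ATF4 element in 3.45%. Both genes highest in P1 held the GC box, as did 4 of the 7 matched genes, and they shared no other searched motif. A match is a string of letters and was not compared with any binding measurement.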

How the data were processed

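Stromal cells of the omentum were sorted after enzymatic digestion and staining with a fluorescent ALDH substrate, RNA was purified with a micro kit, and libraries (NEBNext Ultra) were read from 1 end for 76 bp. The authors deposited FPKM values for each of the 6 libraries. The submitters' processing notes name TopHat2 2.0.7, Cufflinks 2.1.1 and the build mm10, without their roles. The annotation, the use of strand and the handling of reads with several matches are not given in the sources used here.

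Rows that repeated a symbol (495 in each library) were summed, which left 23352 symbols. No scaling was applied between libraries. Folds were computed as ratios of FPKM + 0.1 and called at 2-fold in genes with at least 1 FPKM in either population, for 7 comparisons. With 1 library per population there was no test. Depth was estimated from the steps between low FPKM values, with transcript lengths of GENCODE M21 (GRCm38, the same build as mm10) and an assumed fragment of 200 nt. In each library, 53.0% to 58.5% of low values came within 0.05 of whole reads, so reads are estimates and no count test was run. Intervals are exact binomial (Clopper-Pearson) at 95%, cover counting error only, and do not cover differences between mice or sorts.

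The 10 genes and all lists of pathway and marker genes were chosen with earlier results of these data known. All 10 genes are named. From each pathway list, at most the 4 genes with the highest mean FPKM and genes past 2-fold between gates could be named, and *Atf4*, *Shmt2*, *Sgpl1*, *Akr1a1*, *Esd*, *Glo1* and *Adh1* fall under this rule. For genes with a highest over lowest FPKM of at least 2, the 3 genes with the most similar pattern are named. Loci, exon overlap and coding sequence came from GENCODE M21, and promoters from RefSeq (GRCm38.p6). Alternatives were 4 scalings, other pseudocounts, minimums and fold thresholds. Scripts were tested on simulated data and used Python 3.11.15, numpy 2.4.6, pandas 2.3.3, matplotlib 3.10.9 and scipy 1.17.1.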

Additional observations from a re-analysis of the deposited data

Results flagged for a closer look

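In 4 of the 10 genes, P2 lay above P3 within CD105+ cells while P4 lay below P5 within CD105- cells, so the step from intermediate to low ALDH activity had opposite directions in the 2 CD105 classes. Over all genes, 27.2% of 12461 had opposite directions. The difference was not tested, because each population had 1 library. The fold of P2 over P3 was 1.11 for *Aldh2*, against 0.971 for P4 over P5, 1.08 for *Aldh4a1*, against 0.929, and 1.07 for *Aldh7a1*, against 0.966. For these 3 genes both counting intervals excluded 1, but the direction between P4 and P5 turned when libraries were divided by *Gapdh*, with folds of 1.05, 1.00029 and 1.04. For *Aldh1l2* the folds were 1.53 and 0.934, and the counting interval of P4 over P5 included 1.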

How the results depend on the processing

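No paired analysis was possible because every gate gave a single library, and for the same reason no library could be left out of a comparison. The number of called genes among the 10 changed as follows. Between P1 and P2 it went from 0 to 1 with no minimum FPKM (*Aldh1l2*) and to 1 at 1.5-fold (*Aldh4a1*), and between P1 and P3 to 1 at 1.5-fold (*Aldh1a7*). Between P2 and P4 it went from 1 to 0 with a pseudocount of 1, a minimum of 5 FPKM or a threshold of 3-fold, to 2 with no minimum (*Aldh1l2* added) and to 2 at 1.5-fold (*Aldh3b1* added), and after division by *Gapdh* it was 1 with *Aldh1l1* in place of *Aldh1a7*. Between P3 and P5 it went from 1 to 0 under the same 3 settings, to 4 at 1.5-fold (*Aldh3b1*, *Aldh9a1* and *Aldh18a1* added), and to 2 after division by *Gapdh*, where *Aldh1l1* and *Aldh18a1* were called in place of *Aldh1a7*. Between P6 and P4 it went from 1 to 2 with a common FPKM sum or *Gapdh* (*Aldh4a1* added), to 2 with no minimum (*Aldh1l2* added), to 3 at 1.5-fold (*Aldh1l1* and *Aldh4a1* added) and to 0 at 3-fold. Between P2 and P3 and between P4 and P5 it was 0 under every setting run. The order of the gates was met by 2 genes as deposited and with 3 scalings, by 3 after division by *Gapdh* and by 0 when each step had to reach 1.2-fold.

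Division by *Gapdh*, which itself ran from 214 FPKM in P1 to 326 in P5, moved the median of all genes by 0.47 on the log2 scale between P2 and P4 and by 0.53 between P3 and P5. Of 70 folds of the 10 genes, 54 kept their direction under all 6 settings of scaling and pseudocount, and 11 of the other 16 changed side of 1 by *Gapdh* alone. P1 stayed highest, with all CD105+ populations above P4 and P5, for *Aldh1l1* and *Aldh18a1* as deposited and under all 4 other scalings, and for *Aldh1a7* they stayed below. Depth limits *Aldh1l2* and *Aldh1a7* most.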
